A study of Mus musculus with 18 samples.

Results

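Sestrins and p53 target genes were followed as a set of 10 named genes: Sesn1, Sesn2, Sesn3, Cdkn1a, Mdm2, Ccng1, Trp53inp1, Bbc3, Pmaip1 and Gadd45a. Members were taken by symbol from the probe sets that are assigned to a single gene. Of the 10 genes, 9 had such a probe set, out of 19475 genes measured in this way in the whole series. For Cdkn1a, which encodes the cyclin-dependent kinase inhibitor p21, the one probe set is shared with the transcript 4930567H12Rik, so no value is given for it. The set was chosen by symbol with earlier results in view, and Sesn1 was selected on its KO minus HET difference in log2 signal after lipopolysaccharide (LPS). Contrasts of KO with HET after LPS are therefore described here and not tested.

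The transcription factor p53 is stabilised by DNA damage and other stress, and it activates genes that halt the cell cycle, start apoptosis or restrain its own activity. Sestrins are stress-induced proteins: they hold back the growth kinase complex mTORC1, Sesn2 as a leucine sensor that binds the GATOR2 complex, and they help to limit oxidative damage. Sesn1 and Sesn2 are known p53 targets, Sesn3 is a known target of FoxO factors, and Sesn2 is also induced through the stress factor ATF4. LPS, a component of the bacterial cell wall, activates macrophages through the receptor TLR4.

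The cells were primary bone marrow-derived macrophages of mouse on day 7 of differentiation, from a mixed background of 94% C57BL/6 and 6% 129/Ola. KO cells were Wbp7-/- and HET cells were Wbp7+/-; Wbp7, listed as Kmt2b on the array, encodes a histone H3 lysine 4 methyltransferase. Each genotype was left untreated or given LPS at 10 ug/ml for 2 h or 4 h, with 3 arrays in each of the 6 groups. All comparisons between genotypes are with heterozygous cells, because no Wbp7+/+ group was analysed here. The labels do not give how the allele was made or the age of the mice, and they do not say whether replicates came from separate animals, so p-values measure the spread between these samples, which may be technical.

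Values are log2 signals, so a difference of 1 is a doubling, and the median signal of an array lay between 8.05 and 8.13. For the Kmt2b probe set, KO minus HET was -0.24, -0.06 and -0.09 in untreated cells, at 2 h and at 4 h. None of these passed the test. Untreated KO arrays (10.35 to 10.47) all lay below the HET arrays (10.49 to 10.97), and the genotypes overlapped at 2 h and 4 h. Whether this probe set lies in the deleted part was not given in the sources used here. Macrophage markers (8 of 9 measured) averaged between 13.001 and 13.4 on every array. The marker lists of dendritic cells, neutrophils and progenitors, lymphocytes, erythroid, stromal and mast cells averaged between 6.39 and 8.998. Single markers of these lists were higher: Ngp ran between 9.71 and 12.28, Elane reached 10.37 and Pdgfrb reached 9.91. In untreated cells KO minus HET was 1.22 for Mpo and 1.16 for Elane, against -0.11 for Ngp and -0.22 for S100a8, none of them called. HET replicate 1 stood apart from the other HET arrays at all 3 times. The SD of its differences from them was 0.43 to 0.53 over all genes, against 0.18 to 0.28 for other pairs of a group. The median difference over 29 cell cycle genes between HET replicate 1 and the mean of the other 2 HET arrays was -2.90 in untreated cells, -2.68 at 2 h and -2.04 at 4 h. Many results that rest on HET cells are therefore also given without its 3 arrays. The others, among them most counts over lists of genes, rest on all HET arrays.

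The promoters of the 3 sestrins and of Gadd45a are shown because these 4 genes had LPS responses that passed the test. No promoter window was searched for Trp53inp1, which also passed, or for Pmaip1. The sequences are RefSeq's for build GRCm38.p6, each of 300 bases from 250 before to 50 after a transcription start, and the build of the array itself is not known here. Capitals mark matches, on either strand, to a p53 half-site, to the forkhead sequence TGTTTAC, to the AP-1 sequence TGANTCA or to the ATF4-type sequence TGATGNAA. The Sesn1 gene spans chr10:41810574-41908436 and has 2 windows, both on the plus strand. The first (chr10:41810324-41810623) holds TGTTTAC at 23 to 29 bases after the start, and the second (chr10:41887189-41887488) holds a p53 half-site at 173 to 164 bases before the start. Sesn2 (chr4:132510407-132510706, minus strand) and Sesn3 (chr9:14276051-14276350, plus strand) hold none of these motifs. Gadd45a (chr6:67037358-67037657, minus strand) holds a p53 half-site at 40 to 31 bases before the start.
Sesn1, first start: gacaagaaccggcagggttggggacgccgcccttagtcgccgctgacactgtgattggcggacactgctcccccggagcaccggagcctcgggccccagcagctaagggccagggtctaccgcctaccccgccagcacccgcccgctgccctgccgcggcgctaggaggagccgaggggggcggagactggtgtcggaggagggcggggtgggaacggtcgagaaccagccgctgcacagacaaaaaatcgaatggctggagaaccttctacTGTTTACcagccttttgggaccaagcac
Sesn1, second start: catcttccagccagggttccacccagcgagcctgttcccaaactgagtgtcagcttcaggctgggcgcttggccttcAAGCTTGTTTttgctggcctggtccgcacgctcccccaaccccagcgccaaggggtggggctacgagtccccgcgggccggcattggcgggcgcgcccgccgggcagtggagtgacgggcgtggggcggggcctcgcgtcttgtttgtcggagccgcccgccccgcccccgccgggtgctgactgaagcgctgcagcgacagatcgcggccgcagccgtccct
Sesn2: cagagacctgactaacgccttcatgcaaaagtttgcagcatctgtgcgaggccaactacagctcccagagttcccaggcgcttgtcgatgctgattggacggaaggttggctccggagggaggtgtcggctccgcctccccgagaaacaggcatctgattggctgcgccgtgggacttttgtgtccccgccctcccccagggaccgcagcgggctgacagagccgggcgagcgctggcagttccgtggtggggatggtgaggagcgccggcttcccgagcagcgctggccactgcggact
Sesn3: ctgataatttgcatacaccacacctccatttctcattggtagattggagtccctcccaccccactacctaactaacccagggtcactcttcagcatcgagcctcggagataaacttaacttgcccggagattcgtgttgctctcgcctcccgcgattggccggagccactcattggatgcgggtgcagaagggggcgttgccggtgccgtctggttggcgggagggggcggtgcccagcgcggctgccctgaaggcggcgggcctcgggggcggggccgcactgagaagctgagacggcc
Gadd45a: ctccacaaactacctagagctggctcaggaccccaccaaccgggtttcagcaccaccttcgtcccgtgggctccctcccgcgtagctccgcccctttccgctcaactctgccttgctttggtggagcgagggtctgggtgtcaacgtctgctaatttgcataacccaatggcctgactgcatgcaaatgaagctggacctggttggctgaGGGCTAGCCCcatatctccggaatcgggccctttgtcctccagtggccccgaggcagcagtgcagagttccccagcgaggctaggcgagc

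A p53 half-site was present in 8.36% of all 32841 promoter windows of this length, TGTTTAC in 3.65%, TGANTCA in 7.81% and TGATGNAA in 3.97%. Among the other members with a window, half-sites lay in Mdm2 (GAACTTGCCT, 186 to 177 bases before the start) and Ccng1 (GGGCAAGCCT, 185 to 176 bases before). One window of Cdkn1a (chr17:29090729-29091028) held 2 (GGACTAGCTT, 73 to 64 bases before, and GAACATGTCT, 51 to 42 bases before). Its other window (chr17:29093519-29093818) held none of the motifs. TGTTTAC lay in the window of Mdm2 and in the Bbc3 window at chr7:16310011-16310310, and not in the other windows of Bbc3. A half-site found on both strands at one position is counted once. The windows of Sesn1 held 24 and 31 CG dinucleotides, that of Sesn2 held 23 and that of Sesn3 held 22, against a median of 7 over all windows. Other members had as many or more: Mdm2 held 35, and the windows of Bbc3 held 34, 30 and 39. Ccng1 and Gadd45a held 14 each, and the windows of Cdkn1a held 2 and 23. No match overlapped a match to another motif. A match is a match of letters in these windows and says nothing of binding.

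Sesn1 (probe set 10362811) encodes a sestrin that is induced by p53 in other settings. It fell after LPS in both genotypes by 4 h. In KO cells its log2 signal was 12.02, 12.34 and 12.36 untreated, 11.43, 11.68 and 11.83 at 2 h, and 10.05, 10.39 and 10.58 at 4 h. In HET cells it was 11.61, 11.99 and 12.27 untreated, 7.90, 10.22 and 10.49 at 2 h, and 7.48, 8.21 and 8.24 at 4 h. In each genotype the arrays at 2 h and 4 h lay below all untreated arrays, and after LPS every KO array lay above every HET array of the same time. Sesn1 was chosen on this difference between the genotypes. KO and HET arrays did not overlap for 19.9% of all genes at 2 h and 27.3% at 4 h. The 7.90 at 2 h is HET replicate 1, far below the other 2 HET arrays. At 4 h in HET, 35.4%, 52.3% and 52.9% of the probe sets of an array lay below Sesn1. No detection call is given for signals at this level. From high to low the group means ran KO untreated, HET untreated, KO 2 h, KO 4 h, HET 2 h and HET 4 h, and of these neighbours only KO 2 h and KO 4 h had arrays that did not overlap.

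After 4 h of LPS, Sesn1 was lower than in untreated cells by 3.74-fold in KO (log2 difference -1.90 ± 0.47 SE, adjusted p = 0.0105) and by 15.8-fold in HET (-3.98 ± 0.47, adjusted p = 1.09e-05). The LPS arrays of these contrasts also served the choice of Sesn1, so its p-values for LPS are not independent of that choice. Adjusted p-values are from limma over all 19475 genes of a contrast, and a gene was called when this was under 0.05. At 2 h the fall was called in HET (-2.42, adjusted p = 0.00209) and not in KO (-0.59, adjusted p = 0.715). Without HET replicate 1, the 2 h change was -1.78 in HET (adjusted p = 2.38e-05) and the unchanged -0.59 in KO was also called (adjusted p = 0.0235). The 4 h change in HET was then -3.90 (adjusted p = 9.44e-09). Without KO 4 h replicate 1 the fall in KO at 4 h was no longer called (-1.76, adjusted p = 0.0524), and with only the arrays of the contrast in the fit the 2 h fall in HET was not called (adjusted p = 0.0898). In bulk RNA, fewer cells that express a gene and less of its RNA per cell cannot be told apart.

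The changes of Sesn1 within a replicate number were close to each other in KO: -0.59, -0.66 and -0.53 at 2 h, and -1.98, -1.95 and -1.78 at 4 h. In HET they were -3.71, -1.78 and -1.78 at 2 h, and -4.13, -3.78 and -4.03 at 4 h. All 6 cultures fell at both times, and each HET culture fell by more than each KO culture. Nothing is read from this parting of the genotypes, since Sesn1 was chosen on its KO minus HET difference after LPS. The further step between 2 h and 4 h was -1.38, -1.29 and -1.25 in KO, against -0.43, -2.004 and -2.25 in HET. HET replicate 1 had its larger fall in the first 2 h, and the other 5 cultures had theirs between 2 h and 4 h. With the culture (genotype and replicate number) as a random block in the fit, this step was called in KO (-1.31, adjusted p = 0.0208) and in HET (-1.56, adjusted p = 0.0043). Without the block it was not (adjusted p = 0.166 in KO and 0.0537 in HET), and without HET replicate 1 both steps were called (-1.31 in KO and -2.13 in HET).

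**Figure D1:**
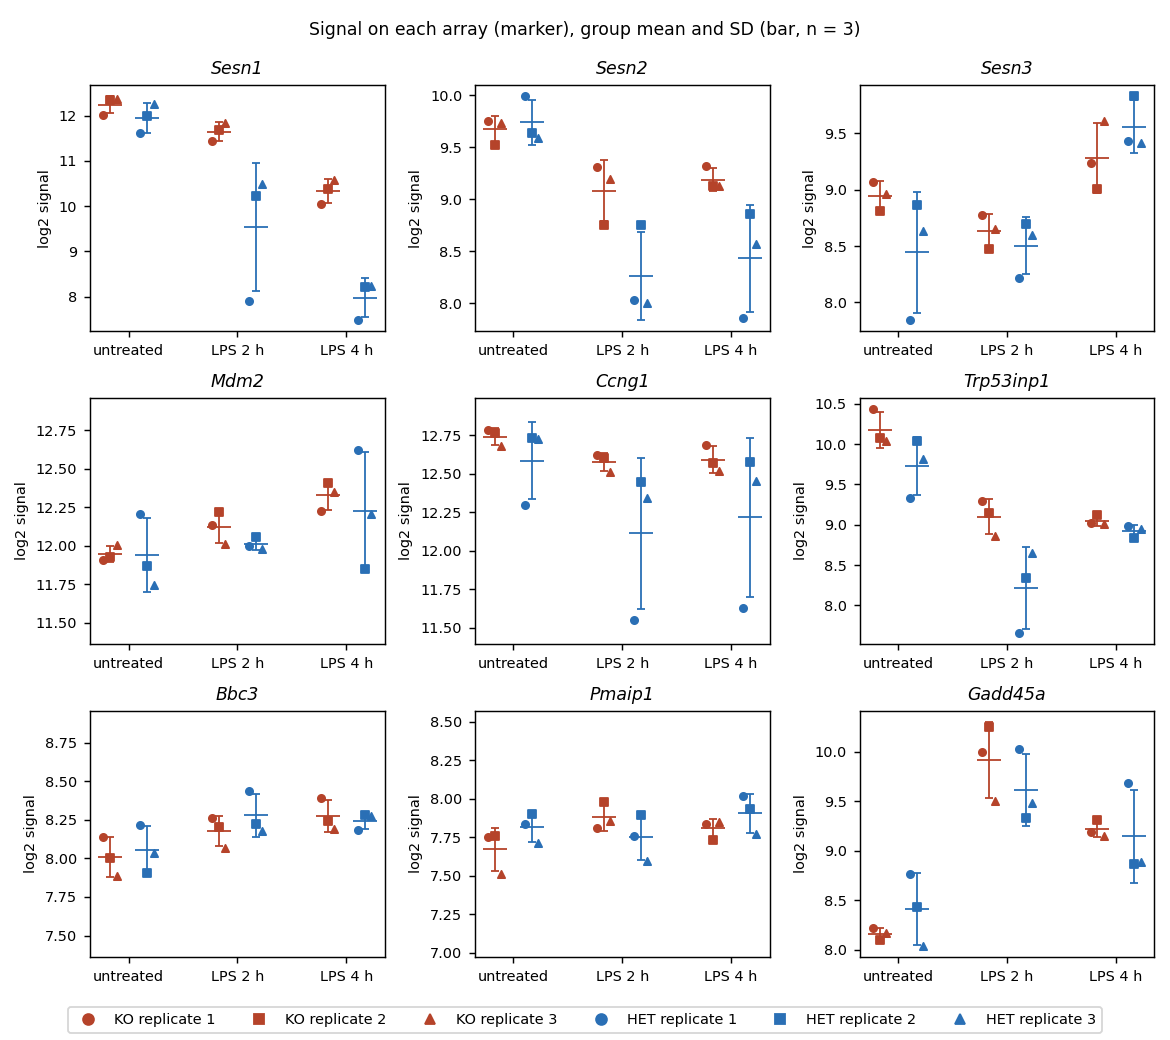
Log2 signal (vertical axis) of the 9 measured genes on each of the 18 arrays, by LPS time (horizontal axis), with KO in red to the left of HET in blue; the marker shape is the replicate number, and bars are the group mean and SD (n = 3). Sesn1 at 4 h lay between 10.05 and 10.58 in KO and between 7.48 and 8.24 in HET, and the circle, HET replicate 1, is the lowest HET array of Sesn1 at each time.

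Sesn2 (probe set 10516932) encodes the leucine-sensing sestrin. It fell after LPS in HET cells, and its fall in KO cells did not pass the test. In KO cells the signal was 9.76, 9.53 and 9.74 untreated, 9.31, 8.76 and 9.19 at 2 h, and 9.32, 9.12 and 9.13 at 4 h. In HET cells it was 9.99, 9.64 and 9.59 untreated, 8.03, 8.76 and 8.005 at 2 h, and 7.86, 8.86 and 8.58 at 4 h. In both genotypes the LPS arrays lay below all untreated arrays at each time. The difference from untreated cells was -0.59 ± 0.24 (SE, adjusted p = 0.301) in KO and -1.48 ± 0.24 (adjusted p = 0.000454) in HET at 2 h. At 4 h it was -0.48 (adjusted p = 0.212) in KO and -1.31 (adjusted p = 0.000505) in HET, which is 2.48-fold lower. Between 2 h and 4 h the difference was 0.10 in KO and 0.17 in HET, neither called. Without HET replicate 1 the change in HET was -1.24 at 2 h and -0.90 at 4 h. Both remained called (adjusted p = 0.00143 and 0.00508). With only the arrays of the contrast in the fit, both KO changes were called (adjusted p = 0.0367 at 2 h and 0.00565 at 4 h).

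Sesn3 (probe set 10583242), the FoxO-linked sestrin, moved the other way: it rose between 2 h and 4 h in HET cells. The signal in KO cells was 9.07, 8.81 and 8.96 untreated, 8.78, 8.47 and 8.65 at 2 h, and 9.23, 9.002 and 9.61 at 4 h. In HET cells it was 7.84, 8.86 and 8.63 untreated, 8.22, 8.69 and 8.60 at 2 h, and 9.43, 9.83 and 9.42 at 4 h. All 3 HET arrays at 4 h lay above every earlier HET array, while the KO arrays at 4 h overlapped the untreated ones and lay above those at 2 h. At 4 h Sesn3 was 2.16-fold higher than in untreated HET cells (1.11 ± 0.22 SE, adjusted p = 0.00121), and the difference in KO was 0.34 (adjusted p = 0.38). The step between 2 h and 4 h was 1.05 in HET (adjusted p = 0.00819) and 0.65 in KO (adjusted p = 0.147), and with the culture as a block the KO step was called too (adjusted p = 0.0164), as it was without HET replicate 1 (adjusted p = 0.0117). The value of 7.84 is HET replicate 1, and without that culture the 4 h rise in HET was 0.88 (adjusted p = 0.00205). The HET step from 2 h was not called with only its own arrays in the fit (adjusted p = 0.0623).

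Mdm2 (probe set 10372668) encodes the ubiquitin ligase that degrades p53, and Ccng1 (10385271) encodes cyclin G1, which also restrains p53. Mdm2 ranged between 11.74 and 12.62 over the 18 arrays and was not called in any contrast. Its mean at 4 h was above untreated cells by 0.38 ± 0.15 (SE) in KO (adjusted p = 0.115) and by 0.28 in HET (adjusted p = 0.149). The KO difference was called with the culture as a block (adjusted p = 0.0318) and without HET replicate 1 (adjusted p = 0.00773). All 3 KO cultures had a higher value at 4 h than untreated, by 0.32, 0.48 and 0.34, against 0.42, -0.02 and 0.46 in HET.

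Ccng1 stayed between 12.51 and 12.78 on the 9 KO arrays. In HET cells it was 12.30, 12.73 and 12.73 untreated, 11.55, 12.45 and 12.34 at 2 h, and 11.63, 12.57 and 12.45 at 4 h. The first value of each triplet is HET replicate 1, which lay below the other 2 by 0.43 in untreated cells and by 0.84 and 0.89 after LPS. The change after LPS in HET was -0.47 at 2 h, with an adjusted p of 0.215, and -0.37 at 4 h, with one of 0.216. Both were called with the culture as a block (adjusted p = 0.0247 and 0.0438). Without HET replicate 1 the 2 h change was -0.34 and called (adjusted p = 0.0167), and the 4 h change was -0.22 and not called (adjusted p = 0.0654).

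Trp53inp1 (probe set 10503259) encodes a p53-induced nuclear protein that takes part in autophagy and cell death. It was the one gene of the set whose fall passed the test in both genotypes at both times. In KO cells the signal was 10.43, 10.07 and 10.03 untreated, 9.29, 9.14 and 8.86 at 2 h, and 9.02, 9.12 and 9.01 at 4 h. In HET cells it was 9.34, 10.04 and 9.81 untreated, 7.66, 8.34 and 8.66 at 2 h, and 8.99, 8.84 and 8.95 at 4 h. No LPS array overlapped the untreated arrays of its genotype. At 2 h the gene was lower than in untreated cells by 2.11-fold in KO (-1.08 ± 0.22 SE, adjusted p = 0.00824) and by 2.85-fold in HET (-1.51, adjusted p = 0.000163). At 4 h the difference was -1.13 in KO (adjusted p = 0.0017) and -0.81 in HET (adjusted p = 0.00892). Without HET replicate 1 the HET differences were -1.43 at 2 h and -1.04 at 4 h, both called.

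Between 2 h and 4 h the difference of Trp53inp1 was -0.05 in KO (adjusted p = 0.984) and 0.71 in HET (adjusted p = 0.0577). The HET step was called with the culture as a block (adjusted p = 0.00921), and without HET replicate 1 it was 0.39 and not called (adjusted p = 0.141). The 3 HET cultures gained 1.33, 0.50 and 0.29 over this interval, the largest in replicate 1. The 2 h call in KO was lost without KO untreated replicate 1 (adjusted p = 0.0533) or KO 2 h replicate 3 (adjusted p = 0.056), and the 4 h call in HET was lost after quantile normalization (-0.55, adjusted p = 0.0835).

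Bbc3 (probe set 10550290, encoding PUMA) and Pmaip1 (10456357, encoding NOXA) are BH3-only proteins that start apoptosis at the mitochondrion. Both probe sets varied little, Bbc3 between 7.88 and 8.44 and Pmaip1 between 7.51 and 8.02, and neither was called in any contrast. Pmaip1 stayed below the median signal of the arrays throughout, where no detection call is given. The mean of Bbc3 at 4 h was above untreated cells by 0.27 ± 0.10 (SE) in KO (adjusted p = 0.0923) and by 0.19 in HET (adjusted p = 0.144). The KO difference at 4 h, of 1.20-fold, was called with the culture as a block (adjusted p = 0.0189). That of 0.23 in HET at 2 h was called with the culture as a random block (adjusted p = 0.0446) and not as a fixed one (adjusted p = 0.0513). The 4 h differences without HET replicate 1 were called in KO (0.27, adjusted p = 0.0285) and in HET (0.31, adjusted p = 0.033).

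Gadd45a (probe set 10545130) encodes a stress sensor that binds p21 and PCNA and activates p38 and JNK signalling. It was the one gene of the set whose rise passed the test at both times in both genotypes. In KO cells the signal was 8.22, 8.10 and 8.17 untreated, 10.00, 10.26 and 9.50 at 2 h, and 9.19, 9.31 and 9.15 at 4 h. In HET cells it was 8.76, 8.43 and 8.04 untreated, 10.03, 9.33 and 9.48 at 2 h, and 9.68, 8.87 and 8.88 at 4 h. Every LPS array lay above all untreated arrays of its genotype, and the 2 h arrays of KO lay above the 4 h arrays. At 2 h Gadd45a was 3.38-fold higher than in untreated cells in KO (1.76 ± 0.24 SE, adjusted p = 0.0004) and 2.31-fold higher in HET (1.21, adjusted p = 0.00274). At 4 h the difference was 1.06 in KO (adjusted p = 0.0067) and 0.74 in HET (adjusted p = 0.0277). Without HET replicate 1 the HET differences were 1.18 at 2 h and 0.64 at 4 h, both called.

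The peak of Gadd45a at 2 h was followed by a step of -0.70 in KO and -0.47 in HET between 2 h and 4 h. Neither step was called (adjusted p = 0.147 and 0.313), and the KO step was with the culture as a block (adjusted p = 0.0138) or without HET replicate 1 (adjusted p = 0.00821). All 6 cultures were lower at 4 h than at 2 h. HET replicate 1 lay above the other 2 HET arrays at every time, by 0.53, 0.62 and 0.81. The 4 h call in HET was lost without HET 4 h replicate 1 (0.47, adjusted p = 0.163) and without HET untreated replicate 2 or 3 (adjusted p = 0.0621 and 0.133).

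**Figure D2:**
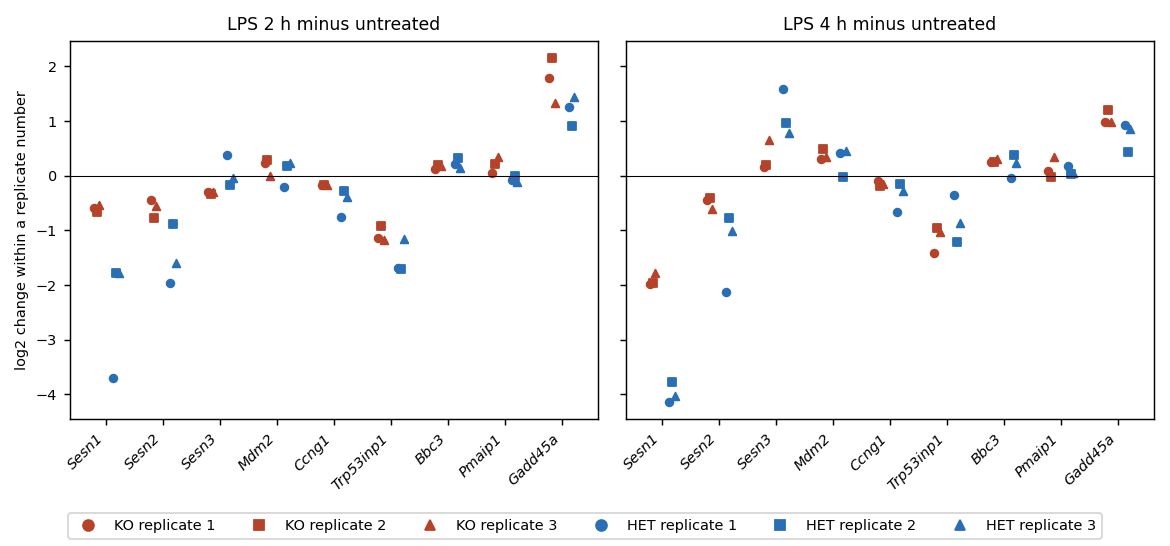
Log2 change (vertical axis) between the LPS and the untreated array of the same genotype and replicate number, at 2 h (left) and 4 h (right), for the 9 measured genes (horizontal axis), with KO in red to the left of HET in blue. Sesn1 changed by -1.98 to -1.78 in KO and by -4.13 to -3.78 in HET at 4 h, and Gadd45a lies above 0 in every culture at both times.

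Over the set, 2 of 9 genes were called at 2 h in KO (Trp53inp1 lower, Gadd45a higher), beside 3.35% of all genes. At 2 h in HET 4 of 9 were called (Sesn1, Sesn2 and Trp53inp1 lower, Gadd45a higher), beside 15.6% of all genes. At 4 h 3 of 9 were called in KO (Sesn1 and Trp53inp1 lower, Gadd45a higher), beside 15.8%, and 5 of 9 in HET (Sesn1, Sesn2 and Trp53inp1 lower, Sesn3 and Gadd45a higher), beside 36.4%. With the culture as a block the KO count at 4 h was 5, with Mdm2 and Bbc3 added, beside 26% of all genes. The median change at 4 h was 0.14 in KO and 0.09 in HET over the set, against 0.02 and 0.09 over all genes. The responses in KO and in HET both share their LPS arrays with the genotype contrasts behind the choice of Sesn1. Neither is independent of that choice.

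Groups without overlapping arrays were common: 8 of 9 genes at 2 h in KO, beside 26.4% of all genes, and 4 of 9 in HET, beside 26.7%. At 4 h the counts were 6 of 9 in KO, beside 41% of all genes, and 5 of 9 in HET, beside 46.5%. Such a gap can be small: the KO arrays of Ccng1 at 2 h were 12.62, 12.60 and 12.51, against 12.78, 12.76 and 12.68 untreated. Between 2 h and 4 h no gene of the set was called in KO, beside 4.37% of all genes, and Sesn3 alone was called in HET, beside 8.18%. The culture block gave 3 calls in KO (Sesn1, Sesn3 and Gadd45a) and 3 in HET (Sesn1, Sesn3 and Trp53inp1), beside 9.75% and 16.4% of all genes. At an unadjusted p under 0.05 in limma without the block, 3 genes of the set passed in KO, beside 13.9% of all genes, and 3 in HET, beside 19.5%.

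In untreated cells no gene of the set was called between KO and HET, beside 0.416% of all genes, and 1 (Sesn3) was under 0.05 in limma before adjustment, beside 4.44% of all genes. The largest differences, KO minus HET, were 0.50 ± 0.22 (SE) for Sesn3 and 0.45 ± 0.22 for Trp53inp1, both with an adjusted p of 1. For both genes HET replicate 1 was the lowest array, and without it the differences were 0.20 and 0.25. For Sesn1 the untreated difference was 0.29 ± 0.47, with a 95% interval between -0.71 and 1.29, and without HET replicate 1 it was 0.11 ± 0.17.

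After LPS the genotypes differed most in Sesn1, the difference for which the gene was chosen. KO minus HET was 2.11 ± 0.47 (SE) at 2 h and 2.36 ± 0.47 at 4 h, so the KO signal was 4.32-fold and 5.15-fold that of HET. Without HET replicate 1 it was 1.29 ± 0.17 at 2 h and 2.11 ± 0.17 at 4 h. Trp53inp1 was higher in KO by 0.88 at 2 h and by 0.13 at 4 h, and without HET replicate 1 by 0.60 and 0.16. For Sesn2 the difference was 0.82 ± 0.24 at 2 h and 0.76 ± 0.24 at 4 h, or 0.71 and 0.47 without that culture. For Sesn3 it was 0.13 and -0.28, or -0.01 and -0.34 without it. The differences of Mdm2, Bbc3, Pmaip1 and Gadd45a ran between -0.10 and 0.30 at both times, and those of Ccng1 were 0.47 and 0.37. With that culture left out, Gadd45a differed by 0.51 and 0.34, Mdm2 by 0.10 and 0.30, and Ccng1 by 0.18 and 0.08.

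As a description, 2 genes of the set were under the threshold at 2 h, beside 2.76% of all genes, and 1 at 4 h, beside 2.42%. Arrays of KO and HET did not overlap for 4 genes at 2 h, beside 19.9% of all genes, and for 3 genes at 4 h, beside 27.3%. Nothing is read from these counts, since the contrasts took part in the choice of the set.

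**Figure D3:**
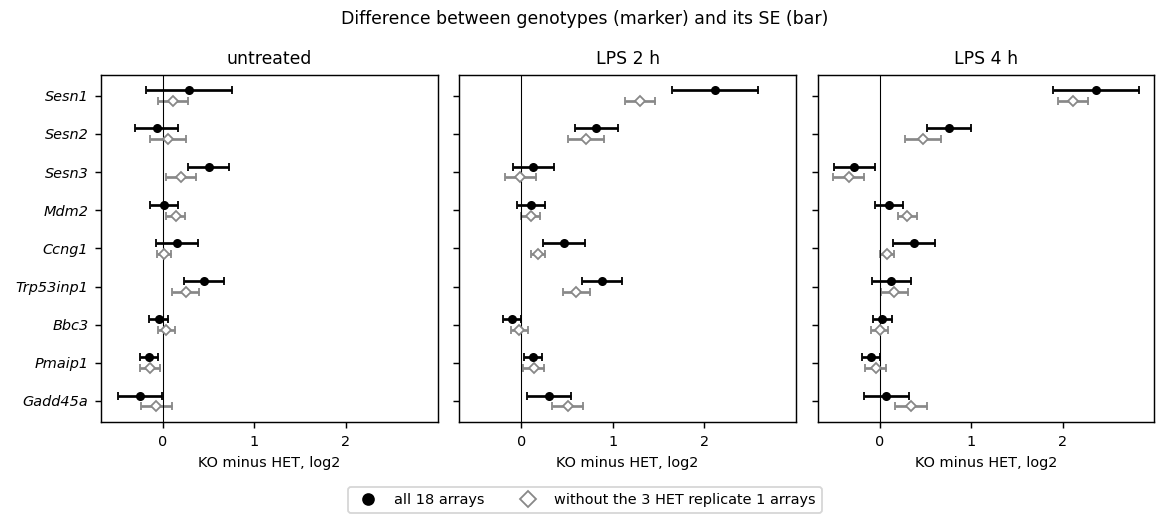
KO minus HET in log2 units (horizontal axis) for the 9 measured genes (vertical axis) in untreated cells, at 2 h and at 4 h, from all 18 arrays (black circles) and without the 3 arrays of HET replicate 1 (grey diamonds); bars are the SE. The Sesn1 difference at 2 h is 2.11 with all arrays and 1.29 without that culture, and at 4 h it is 2.36 and 2.11.

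The difference between genotypes in the response of Sesn1 to LPS was 1.82 ± 0.66 (SE) at 2 h and 2.08 ± 0.66 at 4 h, that is, a smaller fall in KO. For Sesn2 it was 0.89 ± 0.34 and 0.83 ± 0.34, for Sesn3 -0.37 ± 0.32 and -0.78 ± 0.32, and for Gadd45a 0.55 ± 0.34 and 0.32 ± 0.34. The values at 2 h and 4 h without HET replicate 1 were 1.18 and 2.001 for Sesn1, 0.65 and 0.42 for Sesn2, -0.21 and -0.54 for Sesn3, and 0.58 and 0.41 for Gadd45a. As a description, no gene of the set was under the threshold at either time, beside 0% of all genes at 2 h and 0.0513% at 4 h. In limma before adjustment, 1099 of all genes (5.64%) were under 0.05 at 2 h and 1403 (7.2%) at 4 h, and 2 and 3 genes of the set were among them. Nothing is read from these counts either, since the difference in response took part in the choice of the set. The other genes of the set had values between -0.32 and 0.43 at both times.

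Other known p53 targets did not move in one direction after LPS. Of 36 measured, 4 rose and 4 fell at 2 h in KO, beside 3.35% of all genes called in either direction, and 7 rose and 8 fell in HET, beside 15.6%. At 4 h 8 rose and 5 fell in KO, beside 15.8% of all genes, and 11 rose and 10 fell in HET, beside 36.4%. The number that fell at 4 h in KO was 10 with the culture as a block and 11 without HET replicate 1. For all lists, the shares of all genes with the culture as a block were 7.3% in KO and 25.6% in HET at 2 h, and 26% and 53.7% at 4 h. At 4 h they were 27.7% in KO and 35.5% in HET without HET replicate 1. Fas, a death receptor, rose most at 4 h in both genotypes (3.22 in KO, 3.76 in HET), followed by the autophagy gene Dram1 (2.07 in KO, 2.45 in HET). The antigen transporter gene Tap1 rose by 1.98 in KO and 1.69 in HET, and Pml, which forms nuclear bodies, rose by 1.76 in KO and 1.96 in HET. The falls included the kinase gene Plk3 (-0.91 in KO, -1.96 in HET) and the repair polymerase gene Polk (-0.99 in KO, -1.58 in HET). Median changes of the list at 4 h were -0.07 in KO and -0.03 in HET.

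Of 23 measured genes of p53 regulation, 2 rose and 2 fell at 4 h in KO, beside 15.8% of all genes, and 5 rose and 8 fell in HET, beside 36.4%. The culture block gave 3 rises and 8 falls in KO, and without HET replicate 1 there were 3 and 7. At 2 h 1 rose and none fell in KO, against 2 and 3 with the block. In HET at 2 h 1 rose and 3 fell, or 1 and 5 with the block. Without HET replicate 1 these HET counts were 2 and 5, beside 14.3% of all genes. The p53 gene itself had no probe set assigned to it alone. Cop1, which encodes a ubiquitin ligase for p53, rose at 4 h by 1.07 in KO and 0.99 in HET, and the ligase gene Rchy1 fell by 1.02 in KO and 1.41 in HET. The checkpoint kinase gene Chek2 fell by 1.98 in HET at 4 h (adjusted p = 0.00504), while its difference in KO was -1.48 (adjusted p = 0.0503). A list of 13 genes akin to members held Gadd45b, Gadd45g and their binding partner Gadd45gip1, the p21 relatives Cdkn1b and Cdkn1c, Ccng2, Trp53inp2 and 6 BH3-only genes (Bcl2l11, Bid, Bad, Bik, Bmf and Hrk). Of these, 1 rose and none fell at 4 h in KO, beside 15.8% of all genes, and 4 rose and 2 fell in HET, beside 36.4%. With the culture as a block these counts were 2 and 2 in KO, and 6 and 4 in HET. At 2 h 2 rose and none fell in KO, and 3 rose and 1 fell in HET, or 4 and 4 with the block. Gadd45b rose at both times in both genotypes, by 1.99 in KO and 2.51 in HET at 4 h. Cyclin G2 (Ccng2) rose in HET (1.45 at 4 h, adjusted p = 0.000519), and its difference in KO was 0.62 (adjusted p = 0.139). Among the BH3-only genes, Bcl2l11, which encodes BIM, rose at 2 h by 1.39 in KO and 1.69 in HET, and at 4 h in HET Bik rose by 0.30 and Bmf fell by 0.32.

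Sestrin partners and regulators of mTORC1 held 29 measured genes, of which 3 rose and 4 fell at 4 h in KO, beside 15.8% of all genes, and 5 rose and 10 fell in HET, beside 36.4%. In the fit with the culture block 4 rose and 8 fell in KO, and 5 rose and 15 fell in HET. Keap1, encoding the adaptor through which NRF2 is degraded and which sestrins bind, rose by 0.91 in KO and 0.99 in HET at 4 h. Castor2, related to the arginine sensor of mTORC1, fell by 0.92 in KO and 1.76 in HET. Depdc5, a subunit of the GATOR1 complex that holds mTORC1 back, fell by 0.57 in KO and 0.87 in HET, and Mios, a subunit of GATOR2, fell by 0.82 in HET, with a difference of -0.39 in KO (adjusted p = 0.0822). Sqstm1, the p62 adaptor of autophagy, rose at 2 h by 0.63 in KO and 0.67 in HET, and at 4 h by 0.64 in KO and 0.45 in HET. At 2 h 1 gene of this list rose and none fell in KO, or 2 and 1 with the block, and 3 rose and 6 fell in HET.

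The FoxO factor genes Foxo1, Foxo3 and Foxo4 fell at 4 h in both genotypes. Of 21 FoxO factors and targets, 2 rose and 3 fell at 4 h in KO, beside 15.8% of all genes, and 4 rose and 8 fell in HET, beside 36.4%. The culture block gave 3 rises and 7 falls in KO at 4 h. At 2 h 2 rose and 1 fell in KO, or 3 and 3 with the block, and 4 rose and 3 fell in HET, or 4 and 7 with the block. Foxo3 fell at 2 h by 0.75 in KO and 1.33 in HET, and at 4 h by 0.98 in KO and 1.42 in HET. Sod2, the mitochondrial superoxide dismutase, rose by 1.51 at 4 h in each genotype. The list of ATF4 stress targets held 20 genes, Atf4 itself among them. Of these, 5 rose and none fell at 4 h in KO, and likewise in HET, beside the same shares of all genes. In HET the culture block gave 7 rises and 3 falls. At 2 h 4 rose and none fell in KO, and 5 rose and 1 fell in HET (Ddit3, -0.43). The cystine transporter gene Slc7a11 had the largest rise, 4.25 in KO and 3.93 in HET at 4 h. In the cell cycle list of 29 genes 2 fell at 4 h in KO and 3 in HET, beside 15.8% and 36.4% of all genes. These numbers were 5 and 11 with the culture as a block (26% and 53.7% of all genes), and 29 and 27 without HET replicate 1 (27.7% and 35.5%).

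**Figure D4:**
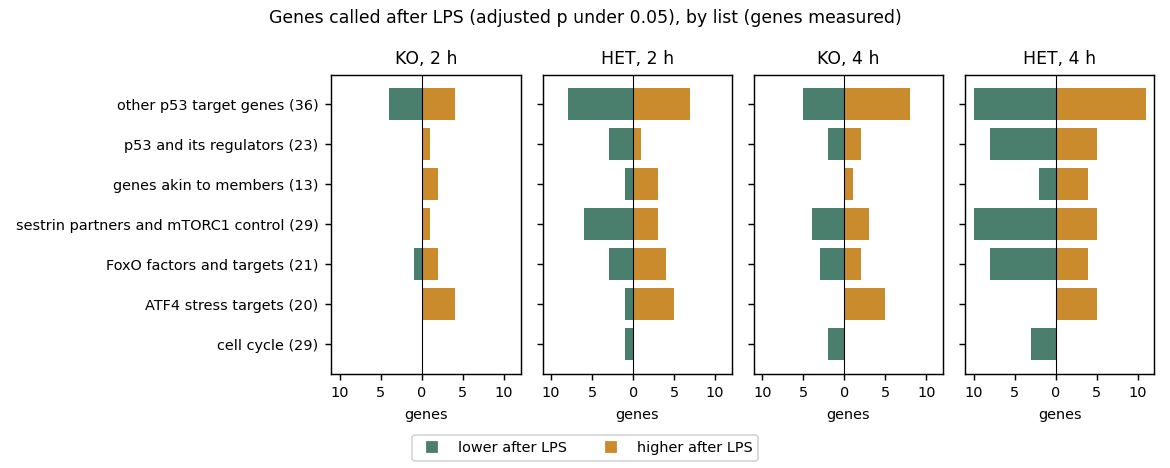
Number of genes called lower (green, to the left of 0) and higher (ochre, to the right) after LPS (horizontal axis) in 7 lists of related genes (vertical axis, with the number measured in brackets), for KO and HET at 2 h and at 4 h. In HET at 4 h, 11 other p53 targets were higher and 10 lower, and in KO 8 were higher and 5 lower.

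The genes whose signal ran most like that of Sesn1 over the 18 arrays were Sdhaf1 (Pearson r = 0.99), Naa40, Dmac1, Ints10 and Thap12 (each r = 0.98). Without HET replicate 1, r was between 0.97 and 0.99 over 15 arrays. Their changes at 4 h were smaller than that of Sesn1: Sdhaf1 changed by -0.70 in KO and by -1.55 in HET. An r over 0.9 with Sesn1 was held by 856 genes, and the 18 arrays share the LPS times and genotypes. The nearest to Sesn2 were Sirt4, Sufu and Crtc1 (r = 0.94 to 0.93), and 32 genes had an r over 0.9. The nearest to Sesn3 were Rbl1, Phf20l1 and Mrpl27 (r = 0.90 to 0.89), those to Trp53inp1 were Tmem101, D130007C19Rik and Tmem18 (r = 0.94 to 0.92), and those to Gadd45a were Orai2, Rest and Trps1 (r = 0.93 to 0.90). Without HET replicate 1, r ran between 0.85 and 0.90 for the genes nearest to Sesn2 and between 0.80 and 0.95 for Sesn3. For Trp53inp1 it was then 0.91 to 0.95, and for Gadd45a 0.88 to 0.92. Within the set, Sesn1 had an r of 0.78 with Sesn2, 0.72 with Ccng1, 0.70 with Trp53inp1 and -0.41 with Sesn3. Gadd45a had an r of -0.74 with Trp53inp1 and -0.67 with Sesn2.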

How the data were processed

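RNA of 18 macrophage samples was measured on Affymetrix gene arrays. The deposited table holds RMA values on the log2 scale, 1 per probe set and array. The authors used Partek 6.5, per the submitters' processing notes. The build behind the array was not given in the sources used here. Arrays have no depth, and their number limits the precision. Of 25344 probe sets, 21137 had a single gene in the platform's table (1530 had several and 2677 none) and gave 19475 genes, with the probe set of the highest mean used for the 915 genes with several. Each of the 9 members has 1.

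One linear model with a mean per group was fitted to the whole table of genes, using limma 3.58.1 (R 4.3.3; lmFit and eBayes, 12 residual degrees of freedom), and p was adjusted by Benjamini-Hochberg over the genes of each of 11 contrasts. The script was tested on simulated data. Differences are given with their SE from this fit, and folds are powers of 2 of log2 differences. The same untreated arrays serve both LPS times of a genotype. Plots were made in matplotlib 3.10.9 under Python 3.11.15.

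The members, the lists and the contrasts were chosen with earlier results of these data known. Contrasts between KO and HET after LPS, and the difference in response, took part in that choice and are descriptions. The lists were other p53 targets, p53 and its regulators, genes akin to members (of the Gadd45, p21, cyclin G, Trp53inp and BH3-only kinds), sestrin partners and mTORC1 control, FoxO factors and targets, ATF4 stress targets and cell cycle genes. From each list, up to 3 called genes with the largest rise and 3 with the largest fall per contrast, and up to 2 not called, could be named. Likeness was Pearson's r over the arrays, for the 5 nearest genes to Sesn1 and the 3 nearest to other members whose group means had an SD of at least 0.3.

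Replicate numbers in the labels were checked for pairing: deviations from group means correlated at 0.32 to 0.80 in all 18 pairs of arrays with the same genotype and number, and at -0.35 to 0.39 in the 27 pairs with the same number in the other genotype. Genotype and number were therefore taken as a culture, and results are also given with it as a block (consensus correlation 0.40). Further settings tried were quantile normalization, centring of each array on its median, dim genes left out (under the 40th percentile), probe sets of a gene averaged, array weights, a robust prior with a trend on intensity, only the arrays of a contrast, replicate number as a block, each array left out in turn and HET replicate 1 left out at all 3 times.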

Additional observations from a re-analysis of the deposited data

Results flagged for a closer look

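Pmaip1, which encodes the BH3-only protein NOXA, changed by 0.06, 0.22 and 0.35 at 2 h of LPS in the 3 KO cultures, against -0.08, -0.01 and -0.11 in the 3 HET cultures. Every KO culture moved up and every HET culture moved down, with a difference of 0.28 between the mean changes. The smallest of these changes were 0.06 in KO and -0.01 in HET. The split was picked from the changes of all measured genes of the set, at 2 h, at 4 h and between these times. With that many looks a split of signs can arise by chance, so nothing is read from it. How many of all genes part in this way was not counted. The signal of Pmaip1 was low, with 41.5% to 48% of the probe sets of an array below it. As a description, the difference of 0.28 had an SE of 0.14 in the limma fit and was not under the threshold (adjusted p = 0.938).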

How the results depend on the processing

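No gene of the set changed sign where it was called, under any alternative. Of the single-gene values recomputed, 1662 kept their side of the threshold, 60 gained a call and 24 lost one. Counts of genes of the set called in untreated KO against HET, at 2 h and 4 h in HET, and for the difference in response at 2 h stayed within 1.5 times under every alternative run. For KO against HET after LPS the counts are descriptions: at 2 h (2 under the threshold) the count was 1 after quantile normalization, 0 with only the arrays of the contrast, 0 to 3 with 1 array left out, and 1 without HET replicate 1 at all 3 times; at 4 h (1) it was 0 to 2 with arrays left out. The 2 h response in KO (2 called) gave 4 with only its arrays, and 1 to 3 with arrays left out. The 4 h response in KO (3 called) gave 6 with array weights, 5 with only its arrays and 5 with the culture as a replicate block, random or fixed; with arrays left out it was 2 to 5. The step between 2 h and 4 h in KO (0 called) gave 3 with array weights, with only its arrays and with the culture block of either kind, and 0 to 3 with arrays left out. In HET (1 called) it gave 2 after quantile normalization or with array weights, 3 without dim genes, 0 with only its arrays, 3 with the culture or the number as a random block, 4 with the culture fixed, and 1 to 2 with arrays left out. The difference in response at 4 h (0 called) gave 1 with array weights and 0 to 1 with arrays left out. The share of all genes called moved as well: for the 4 h response in KO it was 15.8%, and 26% with the culture as a random block. Nothing about the set is therefore read from these counts. The cause of these shifts was not tested. Beside the results in the report, the culture block changed no call of a gene of the set other than the 2 h to 4 h step of Gadd45a in HET, called with the culture fixed (adjusted p = 0.0293). Over all genes, the number called without a block and with the culture as a random block was 652 and 1422 at 2 h in KO, 3069 and 5073 at 4 h in KO, 3033 and 4979 at 2 h in HET, 852 and 1898 for the step in KO, 1594 and 3194 for the step in HET, 0 and 35 for the difference in response at 2 h, and 10 and 98 at 4 h. With array weights it was 189 against 81 for untreated KO and HET, 853 against 537 at 2 h and 1252 against 472 at 4 h, and with only the arrays of these contrasts 20, 31 and 42. The number of arrays limits what can be called.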
